A study of Macaca mulatta with 2 samples.

Results

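Expression of 36 antioxidant and NRF2 pathway genes was described in the macaque optic nerve from bulk RNA-seq. The genes were taken by symbol, with no rule on their levels, but from a list chosen when earlier results of these data were known. All 36 were among the 16684 genes of the table. The samples were 2 optic nerves of wild-type, untreated rhesus macaques (*Macaca mulatta*), sequenced as the libraries Rep1 and Rep2. The study's methods give a 12-year-old male, whose tissue was collected after death, as the source, whereas the deposited description speaks of 2 animals. The data thus hold 1 condition with 2 libraries, which cannot give a p below 0.5 in an exact two-sided sign test, and no test of a condition was made. Any difference between Rep1 and Rep2 is a difference between libraries, and whether it is technical or biological cannot be told apart.

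Reactive oxygen species are cleared in steps. Superoxide dismutases turn superoxide into hydrogen peroxide, which catalase, glutathione peroxidases and peroxiredoxins reduce, using glutathione and thioredoxin that are recharged with NADPH. The transcription factor NRF2, encoded by *NFE2L2*, is held at low levels by KEAP1, which presents it to a CUL3 ubiquitin ligase, and when KEAP1 is modified by oxidants NRF2 drives many of these genes through antioxidant response elements. In the optic nerve, where long axons depend on mitochondria and on glia, oxidative stress has been studied as a part of glaucoma.

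The levels are in TPM, read counts corrected for gene length and scaled to a sum of 1000000 in each library, so genes can be compared within a library. Rep1 was the shallower library. A single read was worth 17.2 times as many TPM there as in Rep2, and 6425 genes were listed at 0 in Rep1 against 2082 in Rep2. Markers of the nerve were present, with *MBP*, the myelin basic protein of oligodendrocytes, at 4.37% of all TPM (Rep1) and 20.0% (Rep2). All 21 marker genes of its oligodendrocytes, astrocytes, vessels and meninges were higher in Rep2, by a median of -2.72 on the log2(TPM + 1) scale (Rep1 minus Rep2). Their sums in Rep1 and Rep2 were 45983 and 212174 TPM for oligodendrocytes, 1085 and 7257 TPM for astrocytes and 1617 and 15124 TPM for meningeal fibroblasts. Of the 5 microglia markers 4 were higher in Rep2, by a median of -1.48 over the 5, although their sums of 179 and 172 TPM were close, most of each being *AIF1* (113 and 64.5 TPM) and *CSF1R* (61.3 and 62.2 TPM). The 9 photoreceptor and retina markers summed to 4035 TPM (Rep1) and 19.5 TPM (Rep2), and the 4 erythrocyte markers to 4537 and 1098 TPM, where *HBA1* and *SLC4A1* were listed at 0 in Rep1. Among the retina markers *CRX*, at 9.76 TPM (Rep1), was listed at 0 in Rep2, and *VWF*, of the endothelium, was listed at 0 in Rep1. These values stand beside every difference between the libraries given here, and their part in those differences was not tested.

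As a group the antioxidant genes were well represented. In Rep2 all 36 reached 10 TPM, from 12.2 TPM in *GSR* to 1833 TPM in *GPX3*, and in Rep1 25 did. These 25 genes were at 10 TPM or more in both libraries, compared with 30.7% of all 14693 genes that were above 0 in Rep1 or Rep2. Of the 8032 genes whose mean lay in the range of the list, 7.07 to 1100 TPM, 55.0% were. Here and below, genes in this range were not matched to the list on level within its bounds. By mean TPM, 27 of the 36 stood above percentile 75, where 25.0% of all genes stand, and 3 stood below percentile 50. The list summed to 1969 TPM (Rep1) and 8817 TPM (Rep2). The 5 genes with the highest means (*GPX3*, *GSTP1*, *GPX4*, *PRDX1* and *PRDX5*) made up 47.3% of that sum in Rep1 and 51.8% in Rep2. In bulk tissue, fewer cells of a type and less RNA per cell cannot be told apart.

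**Figure D1:**
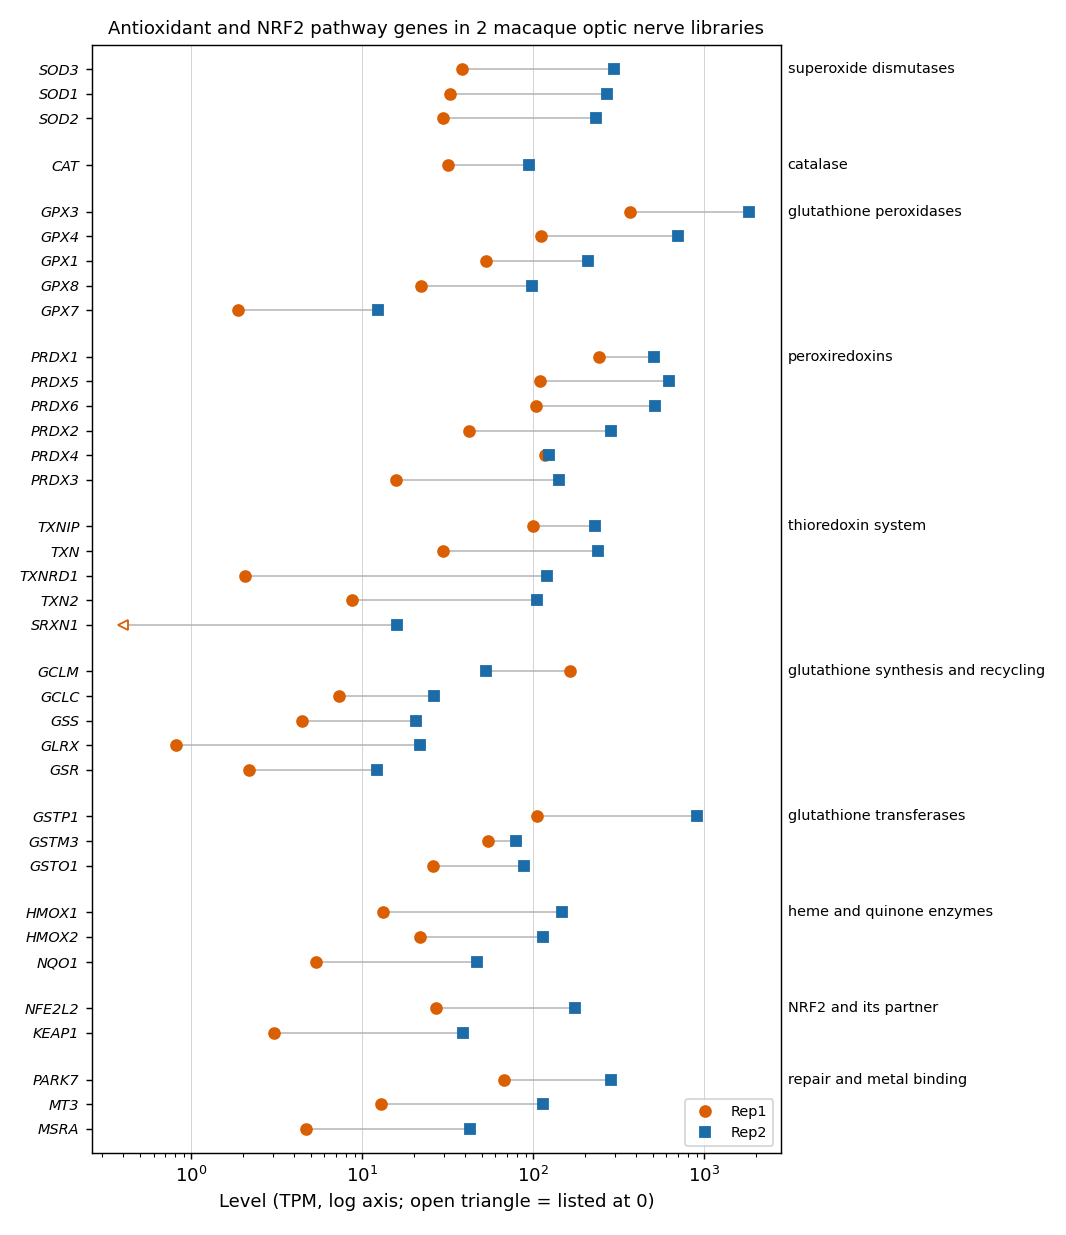
Level of each antioxidant and NRF2 pathway gene (TPM, log axis) in Rep1 (circles) and Rep2 (squares), by enzyme class and in order of mean level within a class. Rep2 lies to the right in 35 of 36 genes, *GCLM* is the exception, and *SRXN1* is listed at 0 in Rep1 (open triangle).

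The 3 superoxide dismutases stood close together. *SOD1*, the cytosolic copper and zinc enzyme (chromosome 3 of the Mmul_10 genome, 14839590 to 14848358, minus strand), was at 32.4 TPM (Rep1) and 270 TPM (Rep2). *SOD2*, the manganese enzyme of mitochondria, was at 29.7 and 233 TPM. *SOD3*, which is secreted into the extracellular matrix, was at 38.3 and 294 TPM. The order was *SOD3*, *SOD1*, *SOD2* in both libraries, but the ratios were small, with *SOD3* over *SOD2* at 1.29 in Rep1 and 1.26 in Rep2. Set against the spread of a single library, about 1.60 on the log2(TPM + 1) scale for the median gene of the list (taken for each gene from how far apart the libraries were in the 200 genes of most similar mean), no pair of these genes differed by 1 SD. The largest of the 3 differences, *SOD3* against *SOD2*, was 0.22 SDs. All 3 shifted by almost the same amount between the libraries, -3.02 to -2.91 on that scale. The distances behind the SD were measured from 0, so a shift common to many genes (median of -1.07 over all genes) widens it. Such a shift cancels when 2 genes are compared within a library. Here and below, the SD is thus too wide for pairs, and a difference under 1 SD does not show that levels are equal. *CAT*, the catalase of peroxisomes, was at 31.5 TPM (Rep1) and 93.9 TPM (Rep2), level with the dismutases in Rep1 and below them in Rep2.

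The glutathione peroxidases spanned a wide range, in the same order in both libraries. *GPX3*, the secreted form (chromosome 6, 148468161 to 148476737, plus strand), was at 367 TPM (Rep1) and 1833 TPM (Rep2), a mean of 1100 ± 1036 TPM (SD, n = 2), and ranked first of the 36 genes in each library. *GPX4*, which reduces lipid peroxides in membranes and protects from ferroptosis, was at 110 and 699 TPM, or 405 ± 417 TPM (SD, n = 2). *GPX1*, the cytosolic and mitochondrial enzyme, was at 52.7 and 208 TPM. *GPX8* and *GPX7*, both of the endoplasmic reticulum, were lower (*GPX8* overlaps *CDC20B* on the other strand), *GPX8* at 22.0 and 98.3 TPM and *GPX7* at 1.88 and 12.3 TPM. All 10 pairs of the class stood in the same order in both libraries, beside 78.2% of all untied pairs of genes. The 10 pairs come from 5 genes and are not independent, so the order was not shown to be particular to this class. Of the 10 pairs, 7 differed by more than 1 SD of a single library. By this wide SD, neighbours in the order did not, except *GPX8* over *GPX7* at 1.68 SDs. The ratio of *GPX3* to *GPX4* was 3.33 in Rep1 and 2.62 in Rep2, and that of *GPX4* to *GPX7* 58.5 and 57.1.

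Among the 5 listed peroxidases the order by level also followed the catalytic residue. The step between the forms, *GPX1* over *GPX8*, was only 0.77 SDs of a single library. *GPX2*, outside the list, is also annotated with a selenocysteine. It was at 0 (Rep1) and 0.065 TPM (Rep2), below both cysteine forms, so the division did not extend to it. In the RefSeq annotation of Mmul_10, *GPX1*, *GPX3* and *GPX4* carry a selenocysteine, which is encoded by UGA, elsewhere a stop codon, whereas *GPX7* and *GPX8* have a cysteine codon at the same place. The coding sequences around this codon, with the codon in capitals, separate the 3 higher from the 2 lower of the 5 listed genes.
GPX3: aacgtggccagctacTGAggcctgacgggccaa
GPX4: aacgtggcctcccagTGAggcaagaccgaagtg
GPX1: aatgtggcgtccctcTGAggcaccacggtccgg
GPX8: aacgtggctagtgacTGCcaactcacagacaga
GPX7: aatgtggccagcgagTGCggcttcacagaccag

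The codons lie at chr6:148473206-148473208 (plus strand) for *GPX3*, chr19:880614-880616 (plus) for *GPX4*, chr2:105451484-105451486 (minus) for *GPX1*, chr6:53458468-53458470 (plus) for *GPX8* and chr1:171847104-171847106 (minus) for *GPX7*. The fourth selenoprotein of the list, *TXNRD1*, has its TGA codon next to the end of the coding sequence, at chr11:104059534-104059536 (plus).
TXNRD1: ctccaggctggctgcTGAggt

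The peroxiredoxins were at 10 TPM or more in every library, but their order was not the same in both. *PRDX1*, an abundant cytosolic peroxiredoxin, was at 241 TPM (Rep1) and 510 TPM (Rep2). *PRDX5*, found in mitochondria, peroxisomes and cytosol, was at 109 and 623 TPM. *PRDX6*, which uses glutathione and also acts on phospholipids, was at 103 and 517 TPM. *PRDX1* thus led the class in Rep1, 2.20 times above *PRDX5*, and stood below it in Rep2, at a ratio of 0.82. *PRDX2*, the form that is abundant in erythrocytes and neurons, was at 41.7 and 285 TPM, and *PRDX3*, the mitochondrial form, at 15.8 and 142 TPM. *PRDX4*, which acts in the endoplasmic reticulum, was at 116 and 124 TPM, the smallest difference of the 36 genes. Its read numbers could be bounded only weakly, at 3 or more in Rep1 and 55 or more in Rep2. It ranked second of the 6 in Rep1 and last in Rep2, and all 4 pairs of *PRDX4* with *PRDX2*, *PRDX3*, *PRDX5* and *PRDX6* changed order. Of the 15 pairs of the class, 9 kept their order, and 4 differed by more than 1 SD of a single library. *PRDX1* overlaps *MMACHC* on the opposite strand, and reads of the overlap could have been counted for either gene.

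**Figure D2:**
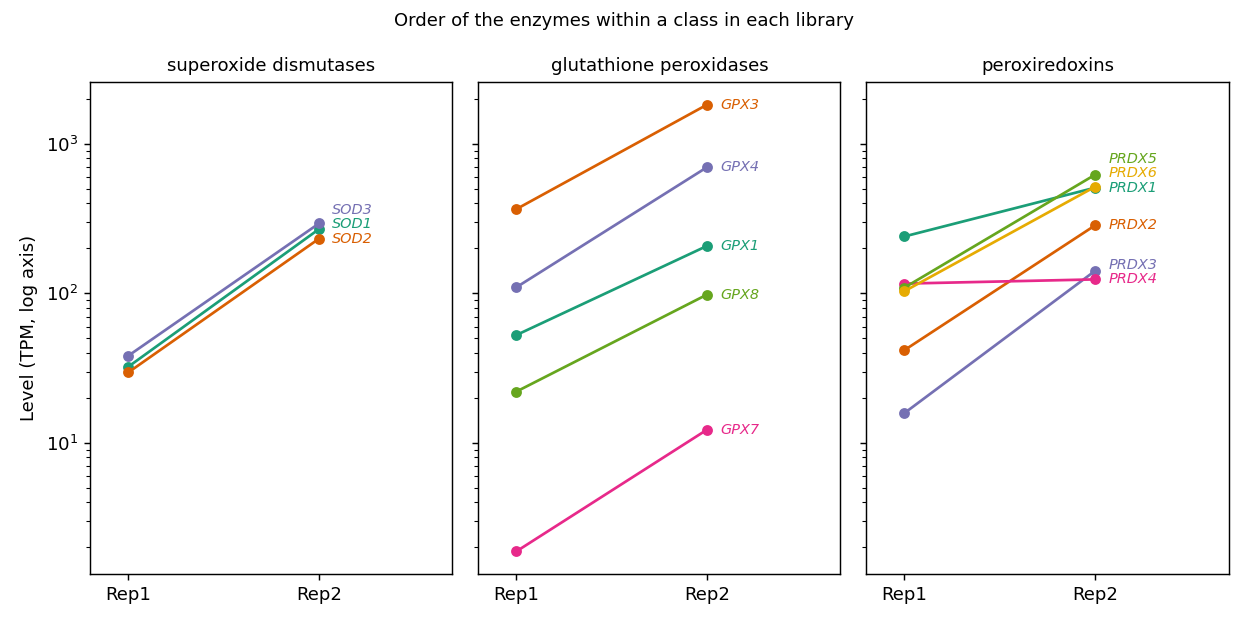
Levels (TPM, log axis) of the superoxide dismutases, glutathione peroxidases and peroxiredoxins in Rep1 and Rep2, each line joining the 2 values of a gene. The lines of the first 2 classes do not cross, whereas *PRDX4* runs nearly level, from 116 to 124 TPM, and crosses 4 others. Of all untied pairs of genes, 78.2% kept their order, and of pairs at 10 TPM or more in both libraries 59.4%.

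The thioredoxin system held the 2 genes with the largest log2 differences between the libraries, *TXNRD1* and *SRXN1*. *TXN*, the cytosolic thioredoxin, was at 29.5 TPM (Rep1) and 240 TPM (Rep2), and *TXN2*, its mitochondrial counterpart, at 8.66 and 104 TPM. *TXNRD1*, the NADPH-dependent reductase of thioredoxin (chromosome 11, 103994318 to 104061454, plus strand), was at 2.04 and 121 TPM, 59.0 times higher in Rep2, the highest such ratio among the 35 genes above 0 in both libraries. It rested on at least 2 reads in Rep1 and 2029 in Rep2. *TXNRD1* overlaps *EID3* on the same strand, and reads of the overlap cannot be assigned with certainty. *TXNRD1* was the more abundant of the pair *TXNRD1* and *TXN2* in Rep2 and the less abundant in Rep1. *SRXN1*, sulfiredoxin, which repairs overoxidised peroxiredoxins, was listed at 0 in Rep1 and at 15.8 TPM in Rep2. Of the 200 genes nearest to *SRXN1* in Rep2 level, 17.0% were also listed at 0 in Rep1, so the 0 does not show absence. It was the only gene of the 36 listed at 0 in Rep1, where 30.2% of all genes and 5.23% of genes in the same range of means were. *TXNIP*, which binds and inhibits thioredoxin and responds to glucose, was at 98.8 and 229 TPM. It stood above *TXN* by 3.34 in Rep1 and level with it in Rep2, at a ratio of 0.95.

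The enzymes that make and recycle glutathione were the low class of the list, apart from *GCLM*. Glutamate-cysteine ligase, the first and rate-limiting step, has a catalytic subunit, *GCLC*, and a modifier subunit, *GCLM*. *GCLC* was at 7.30 TPM (Rep1) and 26.3 TPM (Rep2). *GCLM* (chromosome 1, 130243686 to 130263537, plus strand) was at 163 and 52.7 TPM, 3.09 times higher in Rep1, where it had rank 3 of the 36 genes, against rank 27 in Rep2. This level rested on at least 103 reads in Rep1 and 573 in Rep2. The modifier exceeded the catalytic subunit 22.3 times in Rep1 and 2.01 times in Rep2, so their order held while their ratio did not. *GSS*, glutathione synthetase, was at 4.44 and 20.7 TPM. *GSR*, the reductase that restores glutathione with NADPH, was at 2.17 and 12.2 TPM, and *GLRX*, glutaredoxin, at 0.816 and 21.6 TPM. *GLRX* was above *GSR* in Rep2 and below it in Rep1, where the level of *GLRX* was the lowest of those above 0. *GSR* overlaps a pseudogene on its own strand and a coding gene on the other, and *GCLC* an antisense RNA, so their levels are uncertain to that extent.

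Among the glutathione transferases, which join glutathione to toxic compounds, *GSTP1* was first in each library. It was at 104 TPM (Rep1) and 902 TPM (Rep2), or 503 ± 564 TPM (SD, n = 2). *GSTM3*, of the mu class, was at 53.9 and 79.0 TPM, and *GSTO1*, of the omega class, at 25.99 and 87.9 TPM. *GSTP1* exceeded *GSTM3* by 1.29 SDs of a single library and *GSTO1* by 1.58, whereas *GSTM3* and *GSTO1* changed places and differed by 0.28 SDs. *GSTM3* has close paralogs, and reads that match several of them could have been split or dropped in the counting.

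The enzymes most often used as readouts of NRF2 were present at moderate levels. *HMOX1*, the inducible heme oxygenase (chromosome 10, 16154014 to 16168020, minus strand), was at 13.1 TPM (Rep1) and 147 TPM (Rep2). *HMOX2*, the constitutive form, was at 21.6 and 114 TPM. *HMOX2* overlaps a long noncoding RNA on the other strand. The inducible form was thus lower than the constitutive form in Rep1 and higher in Rep2, and on the mean they differed by -0.10 SDs. *NQO1*, which reduces quinones (chromosome 20, 56970085 to 56987942, minus strand), was at 5.34 and 46.9 TPM, below both oxygenases in each library. *NFE2L2* itself (chromosome 12, 64326140 to 64382891, minus strand) was at 27.0 and 176 TPM. Its inhibitor *KEAP1* (chromosome 19, 10244340 to 10257891, minus strand) was at 3.06 and 38.8 TPM. The transcript of NRF2 exceeded that of *KEAP1* 8.82 times in Rep1 and 4.53 times in Rep2, a difference of 1.499 SDs. Reads in Rep1 could be bounded only weakly, at 1 or more for *NFE2L2* and 3 or more for *KEAP1*. NRF2 is controlled mainly through protein stability, and these levels say nothing of its activity.

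The remaining 3 genes repair proteins or bind metals. *PARK7*, which encodes DJ-1, a redox-sensing protein, was at 67.6 TPM (Rep1) and 285 TPM (Rep2). *MT3*, the metallothionein of the nervous system, was at 12.8 and 115 TPM. *MSRA*, which reduces oxidised methionine, was at 4.69 and 42.4 TPM. The order *PARK7*, *MT3*, *MSRA* was the same in both libraries. *MSRA* overlaps *PRSS55* on its own strand and *MT3* has close paralogs, so the same uncertainty in counting holds for them.

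Over the whole list, 46 of the 58 pairs within a class kept their order (79.3%), close to the 78.2% of all untied pairs among the 14693 genes, so agreement in order was not shown to be particular to the antioxidant genes. Among pairs with both genes at 10 TPM or more in both libraries, 21 of 30 kept their order (70.0%), beside 59.4% of such pairs over all genes. Of the 10 highest genes in each library, 7 were shared (*GPX3*, *GPX4*, *GSTP1*, *PARK7*, *PRDX1*, *PRDX5* and *PRDX6*).

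Between the libraries the list was lower in Rep1. On the log2(TPM + 1) scale, where changes of low genes come out too small, 33 of the 36 were at least 2-fold higher in Rep2, compared with 51.3% of all genes and 56.0% of genes in the same range of means. Only *GCLM* was at least 2-fold higher in Rep1, where 14.8% of all genes and 21.9% of those in the range were, and it was also the single gene above its Rep2 level at all, against 24.1% of all genes. The median difference of the list was -2.58 (Rep1 minus Rep2), or -2.50 over the 35 genes above 0 in both libraries, beside -1.07 for all genes, -1.40 for genes in the same range of means and -2.72 for the 21 markers of the nerve. Of those 35 genes, 21 were 4 to 10 times higher in Rep2, 5 (*TXNRD1*, *GLRX*, *KEAP1*, *TXN2* and *HMOX1*) were more than 10 times higher, and 9 less than 4 times, *GCLM* included. These 5 were chosen after their values were seen. Their reads in Rep1 could be bounded only weakly, at 2, 1, 3, 1 and 2 or more, in that order.

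**Figure D3:**
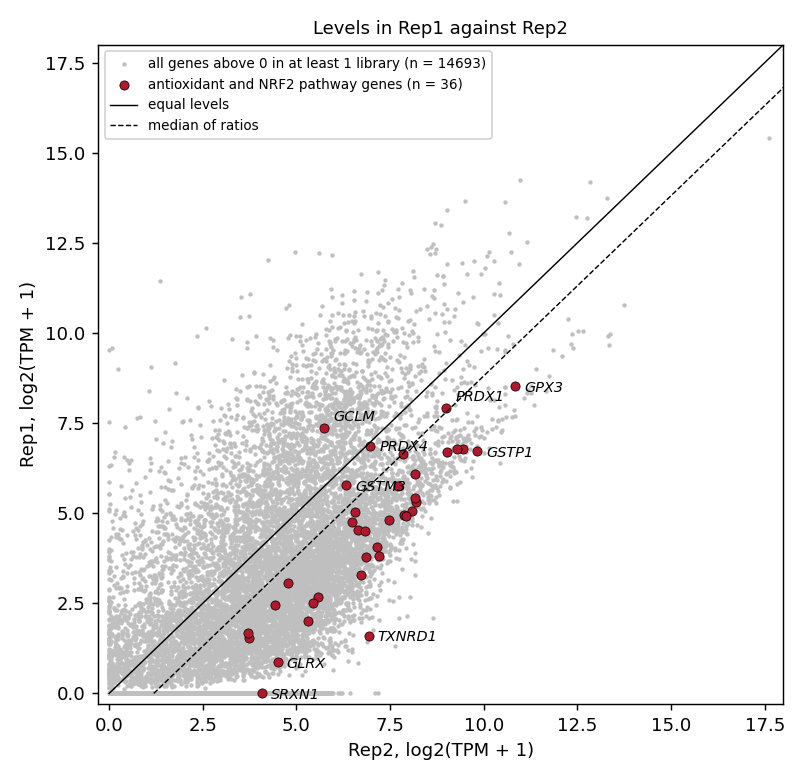
Levels in Rep1 against Rep2 on the log2(TPM + 1) scale, with the 36 antioxidant and NRF2 pathway genes in red and all 14693 genes that were above 0 in Rep1 or Rep2 in grey. The solid line marks equal levels and the dashed line the shift of -1.19 between the libraries by the median of ratios, and 32 of the 36 genes lie on the Rep2 side after that shift.

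The difference was smaller after scaling. Scaling by the median of ratios over genes above 0 in both libraries, which removes a log2 shift of -1.19, left a median of -1.39 for the list, -0.38 for all genes, -0.28 for genes in the same range and -1.53 for the nerve markers. After it 24 genes were at least 2-fold higher in Rep2, beside 33.8% of all genes and 35.5% of those in the range. In Rep1, *GCLM* and *PRDX4* were, with 2.78 and 1.09, beside 23.7% of all genes and 33.6% of those in the range. *PRDX1* and *GSTM3*, lower in Rep1 as deposited, were higher after it, at 0.11 and 0.63. *TXNIP* and *CAT* came to -0.019 and -0.38, whereas *TXNRD1* stayed at -4.31 and *GLRX* at -2.78.

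**Figure D4:**
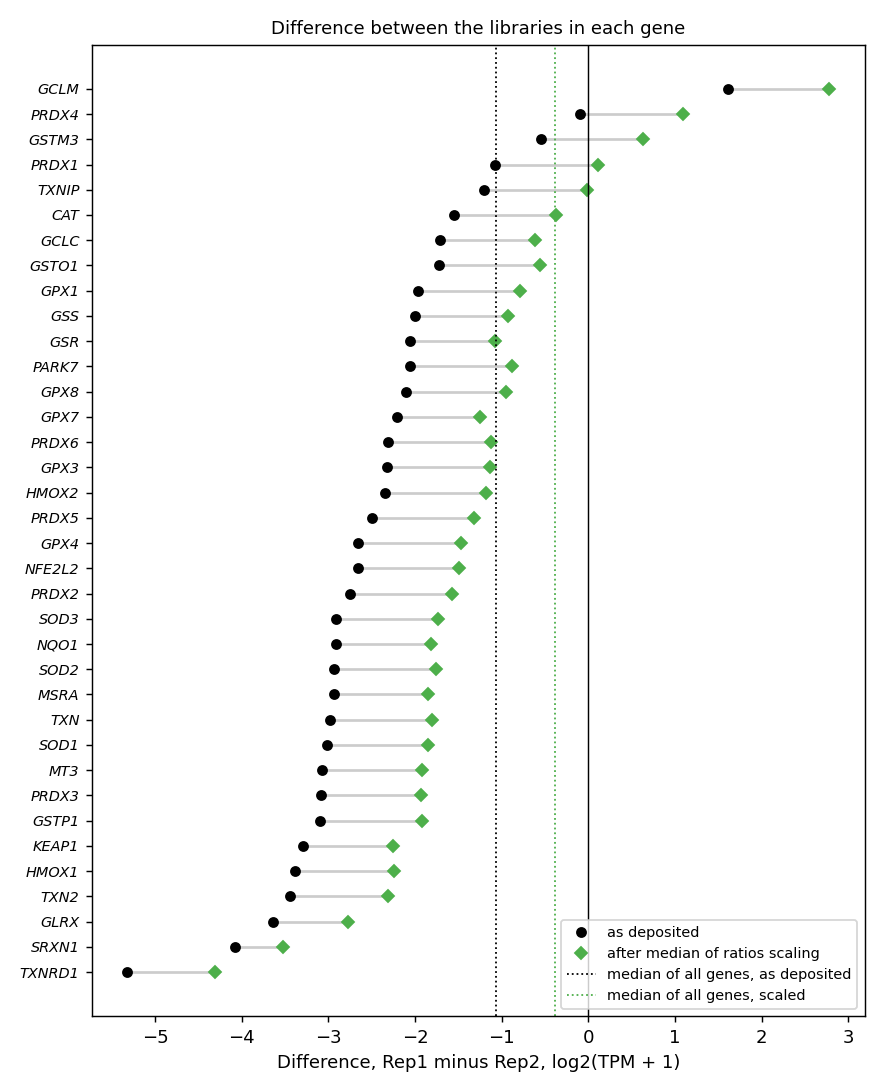
Difference between the libraries (Rep1 minus Rep2, log2(TPM + 1)) in each gene, as deposited (circles) and after the median of ratios scaling (diamonds). Dotted lines give the medians of all genes, -1.07 and -0.38, and *GCLM* is the only gene to the right of 0 as deposited. The value of *SRXN1* comes from a level listed at 0 in Rep1 and is not a fold.

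The rest of the pathway was examined in 51 further genes, of which 49 were listed, and *SELENOP* and *SELENOW* were not analysed here. Of the 49, 31 were at 10 TPM or more in both libraries, beside 30.7% of all genes. As deposited, 35 were at least 2-fold higher in Rep2 (51.3% of all genes) and 2 in Rep1, *CUL3* and *CCS* (14.8% of all genes). After the median of ratios scaling 20 were higher by that much in Rep2 (33.8% of all genes) and 6 in Rep1 (23.7% of all genes), when *NFE2L1*, *RBX1*, *IDH2* and *SESN1*, named here after their values were seen, joined *CUL3* and *CCS*. Their median difference was -1.97 on the log2(TPM + 1) scale and -0.82 after the scaling, and 6 were listed at 0 in Rep1, where 30.2% of all genes were.

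Among the regulators, *CUL3*, the scaffold of the ubiquitin ligase that KEAP1 serves, was at 1447 TPM (Rep1) and 75.02 TPM (Rep2), a level that rested on at least 504 and 449 reads and the largest excess of Rep1 among the 36 and the 49 genes. *MAFK*, which pairs with NRF2 on DNA, was listed at 0 and at 0.54 TPM. Set beside *KEAP1* and *NFE2L2*, both higher in Rep2, *CUL3* differed in the opposite direction, also after the scaling by the median of ratios, at 5.43. Of the 7 genes that supply NADPH, *TALDO1*, of the pentose phosphate pathway, was highest at 320 and 389 TPM, and *ME1*, malic enzyme, lowest at 5.12 and 20.3 TPM.

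Of the 8 other thiol reductases, *MSRB3*, a methionine sulfoxide reductase, was highest at 46.5 and 169 TPM and *TXNRD3*, a further thioredoxin reductase, lowest at 1.71 and 3.95 TPM. In Rep1, where *TXNRD1* was at 2.04 TPM, it was thus close to *TXNRD3*, while in Rep2 it stood far above. Of the 9 other glutathione enzymes, *MGST3*, a microsomal transferase, was highest by mean at 21.6 and 190 TPM, while in Rep1 *GSTA4* was slightly above it at 21.9 TPM. *GPX2*, the peroxidase of the gut epithelium, was listed at 0 in Rep1 and at 0.065 TPM in Rep2.

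The 11 other NRF2 targets were at least 2-fold higher in Rep2 as deposited (51.3% of all genes), and 9 of them after the median of ratios scaling (33.8% of all genes), which left *FTH1* at -0.67 and *AIFM2* at -0.50. Of the 11, 4 (*NQO2*, *OSGIN1*, *ABCC1* and *SLC7A11*) were listed at 0 in Rep1, beside 30.2% of all genes. *FTH1*, the ferritin heavy chain, was highest by mean at 1348 TPM (Rep1) and 4910 TPM (Rep2), and above *GPX3* in each. *SLC7A11*, the cystine importer that feeds glutathione synthesis, was lowest, at 2.32 TPM in Rep2. Of the 200 genes nearest to *SLC7A11* in Rep2 level, 54.0% were also listed at 0 in Rep1. For *ABCC1* this share was 43.0%, for *OSGIN1* 13.5% and for *NQO2* 10.5%. *MT2A*, a metallothionein, was at 70.3 and 609 TPM, above *MT3* in each library, and *SESN2*, a stress-induced sestrin, at 1.72 and 3.89 TPM. *CCS*, which loads copper into the product of *SOD1*, was at 54.4 TPM (Rep1) and 14.5 TPM (Rep2), opposite to *SOD1* itself. *CCS* was singled out after its values were seen. Its level rested on at least 12 reads in Rep1 and 55 in Rep2, and that of *SOD1* on at least 15 in Rep1.

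**Figure D5:**
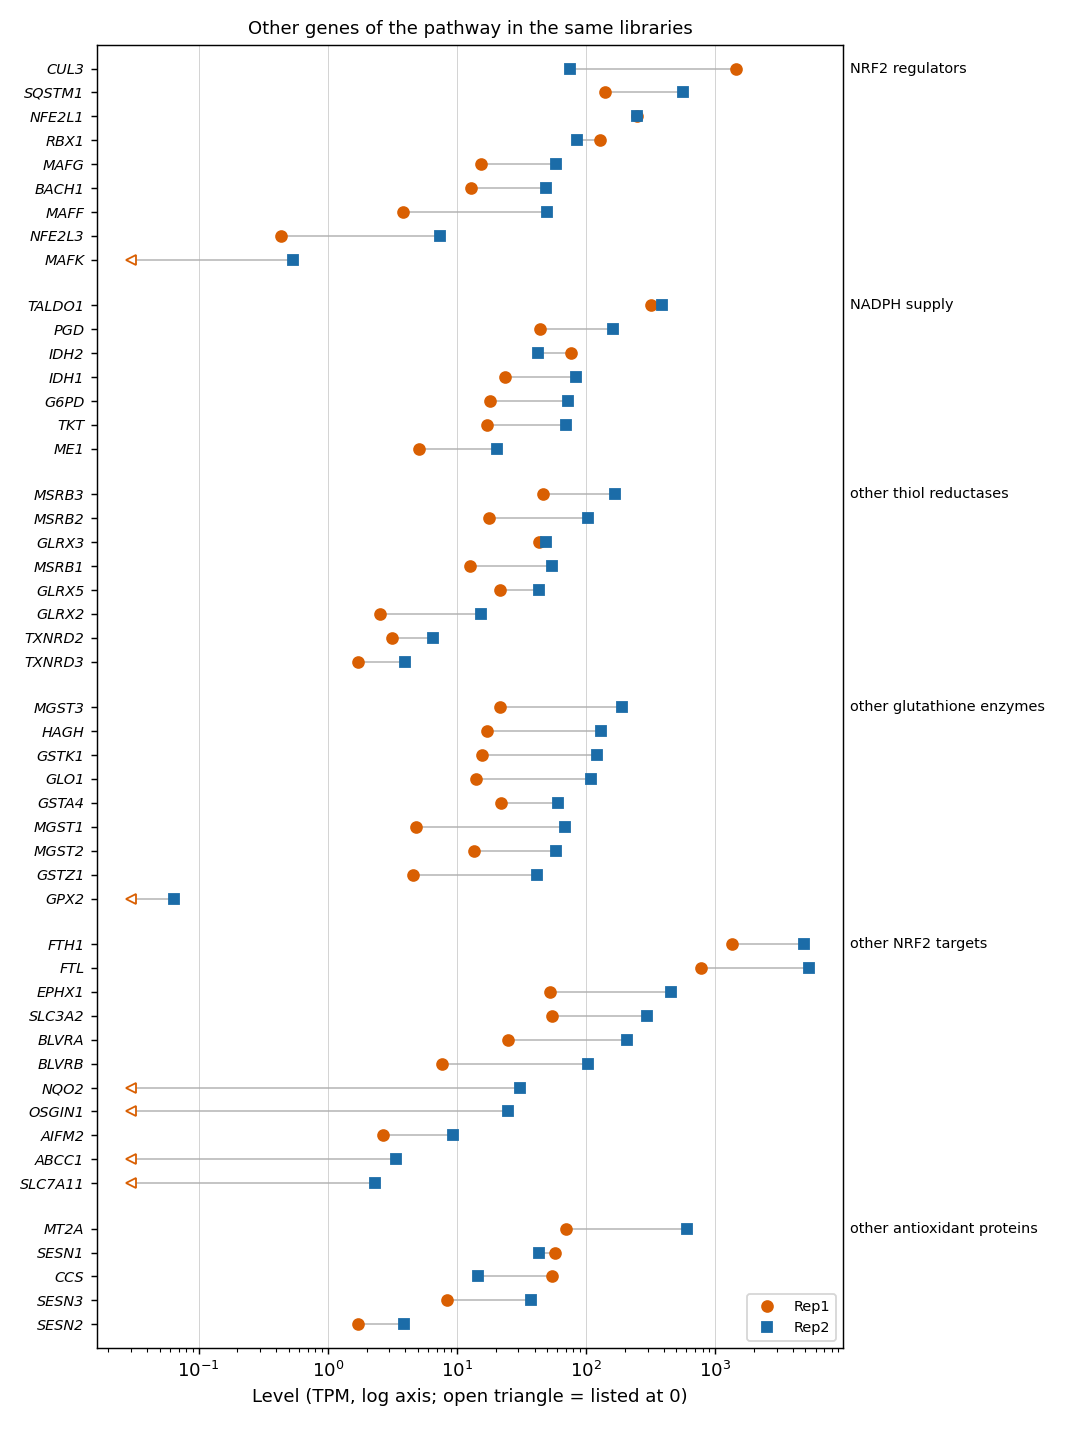
Level of 49 other genes of the pathway (TPM, log axis) in Rep1 (circles) and Rep2 (squares), by class, with open triangles for the 6 genes listed at 0 in Rep1. *CUL3* is at 1447 TPM (Rep1) and 75.02 TPM (Rep2), opposite to most of the plot.

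The core of the antioxidant response element, TGACNNNGC, was searched on both strands from 250 bases before to 50 after the annotated start of each gene in Mmul_10. It was found in 5 of the 36 genes (13.9%), *GLRX*, *GSR*, *GSTM3*, *PRDX1* and *TXNRD1*, and in 13.4% of 16683 such windows of listed genes. Its presence in this window did not set the list apart. Sequence further from the start was not searched, so the search cannot show whether the other genes lack an element. In the 49 other pathway genes it was found in 10 (20.4%). The element overlaps in its first bases with the site of AP-1, TGACTCA. Matches are shown with the element in capitals and 10 bases on each side, for 4 of the 5 list genes, picked after their values were seen. As deposited all 4 were lower in Rep1. After the median of ratios scaling *PRDX1* (0.11) and *GSTM3* (0.63) were slightly higher there, and *TXNRD1* (-4.31) and *GLRX* (-2.78) lower. *GSR*, at -1.08, is not shown.
PRDX1: cccaccggaaTGACTCGGCgcttttcctc
GSTM3: gctggcgtccTGACTCCGCctccgccccg
TXNRD1: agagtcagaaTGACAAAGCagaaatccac
GLRX: actgaaactgTGACTTTGCactccttatg

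These stretches lie at chr1:178900320-178900348 (minus strand), chr1:114389552-114389580 (minus), chr11:103994281-103994309 (minus) and chr6:92671271-92671299 (plus), for *PRDX1*, *GSTM3*, *TXNRD1* and *GLRX*, with the far end of the element at -137, -50, -27 and -161 from the annotated start. *PRDX1* and *GSTM3* were among the 4 genes that were higher in Rep1 after the scaling by the median of ratios, and *TXNRD1* and *GLRX* among those furthest below. A match is a run of letters, and binding of NRF2 was not measured.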

How the data were processed

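The deposited values are TPM for 16684 genes, which the authors made from optic nerve RNA (integrity number above 8) with a SMARTer v4 kit. Per the labels and the study's methods, reads were trimmed below Phred 30 (Trim Galore 0.6.6), aligned to Mmul_10 (STAR 2.7.1a), counted (featureCounts 1.5.3) and scaled in R 4.2.0. Gene lengths, strand setting and multi-mapping are not given in the sources used here. Rep1 and Rep2 cannot be tied to single samples and were used as replicates.

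Analysis was done in Python 3.11 (numpy 2.4.6, pandas 2.3.3, scipy 1.17.1; figures with matplotlib 3.10.9), and its steps were tested on simulated data. Smallest whole read numbers, which are lower bounds, came from the ratio of Rep1 to Rep2 in each gene (tolerance 1e-12; 99.9% of 10168 genes), while read totals and intervals stay unknown. The members and lists were chosen with earlier results of these data known. Named were all members, the highest and lowest gene by mean in each class of other pathway genes and, where stated, genes chosen after seeing values. Alternatives were median of ratios scaling, omission of the 10 most abundant genes, a pseudocount of 0.1, a mean of at least 1 TPM, single libraries, the geometric mean, and pairs at 10 TPM or more.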

Additional observations from a re-analysis of the deposited data

How the results depend on the processing

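No paired analysis was possible because both libraries belong to the same condition. Scaling by the median of ratios changed the median difference of the list from -2.58 to -1.39 and the number of genes at least 2-fold higher in Rep1 from 1 to 2, since it raises Rep1 against Rep2. With pairs limited to members at 10 TPM or more in both libraries, 21 of 30 pairs kept their order (70.0%, against 79.3% of all 58 pairs). The mean of *PRDX4* moved from 120 to 129 TPM under that scaling and to 151 TPM without the 10 most abundant genes, and that of *GSTM3* from 66.4 to 84.3 TPM, beyond their small SDs. Other alternatives stayed within 1.5 times for counts and 1 SD for levels, but with 2 libraries each lies within 1 SD of the mean by construction. Low levels in Rep1 rest on few reads.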
